A study of Saccharomyces cerevisiae with 12 samples.

Results

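Nitrogen-limited and carbon-limited yeast cultures were compared at 30 °C, on 6 of the 12 arrays of the series, chosen because their sample titles give 30 °C. The yeast was CEN.PK113-7D, a prototrophic haploid laboratory strain of Saccharomyces cerevisiae of mating type a, grown without oxygen in chemostats, and each array was given the labelled polyA RNA of 1 culture. In a chemostat, fresh medium enters and culture leaves at the same rate, so that the dilution rate, here 0.03 per hour in both groups, sets the rate of growth. The carbon-limited group (3 arrays) was fed defined synthetic medium in which carbon was scarce and all else was plentiful, and the nitrogen-limited group (3 arrays) medium in which nitrogen was scarce, both without oxygen at pH 5.0. Each of the 3 replicates of a group was an independent culture, per the labels' protocols. The other 6 arrays came from the same strain and limitations at 12 °C. They serve to ask whether the effect of the limitation differed between temperatures. They also enter the fit of all 12 arrays, and so the SE and adjusted p values at 30 °C, the filter on dim genes and the choice of probe set. All results are of 1 strain, and each signal is an average over a culture, in which fewer cells with a transcript and less transcript per cell cannot be told apart.

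Yeast prefers nitrogen sources such as ammonium and glutamine, and nitrogen catabolite repression keeps the genes for poorer sources silent while a preferred source is plentiful. Its GATA factors include the activators Gln3 and Gat1 and the repressors Dal80 and Gzf3, and permeases are a large part of its targets. Glucose acts in a comparable way on carbon use: it represses genes for respiration, gluconeogenesis and other sugars through Snf1 and Mig1, and it sets which hexose transporters are made through the sensors Snf3 and Rgt2 and the repressor Rgt1. In a chemostat the limiting nutrient is kept scarce while the others stay in excess, so the pair of cultures sets these programs against each other at 1 growth rate.

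Signals are linear probe set intensities in arbitrary units that had been scaled before deposit, with a trimmed mean of 150.1 on each of the 6 arrays, so total RNA per cell cannot be compared. Signals under a floor of 12 were raised to it, and 5400 genes were tested. Log2 signals of arrays of 1 group correlated across genes at 0.977 to 0.986, and arrays of different limitations at 0.909 to 0.920. Mating type a genes were high on all 6 arrays, such as the pheromone gene MFA1 at 4656, 5229.9 and 5439 under carbon limitation and 3293, 3152 and 5056 under nitrogen limitation, while the alpha pheromone gene MF(ALPHA)2 lay at or under the floor on all 6. Other alpha-cell genes did carry signal in both groups, with means of 314 and 252 for MF(ALPHA)1 and 118 and 162 for SAG1 under carbon and nitrogen limitation, and neither was called (adjusted p = 0.412 and 0.301). Anaerobic growth markers differed in level. The cell wall mannoprotein gene DAN1 was high in both groups, at 2381, 2795 and 2479.7 under carbon limitation and 3436, 3860.2 and 3907 under nitrogen limitation. Some other markers were dimmer, with means of 164 and 177 for COX5B and 259 and 100 for CYC7 under carbon and nitrogen limitation. Of 10 anaerobic growth markers, 4 were called higher and 1 lower under nitrogen limitation, and of 8 a-cell genes 1 was called higher. Over all genes tested, 14.3% were called higher and 12.6% lower, so the a-cell count is near the share of all genes. The bacterial and phage control transcripts of the arrays averaged 317 ± 33.4 under carbon limitation and 521 ± 46.4 under nitrogen limitation (SD, n = 3), and ribosomal RNA probe sets 346 ± 96.5 and 149 ± 129. On the latter the groups overlapped, with nitrogen-limited replicate 2 at 297 above carbon-limited replicate 1 at 241. What these control signals contribute to the results below was not tested. The submitters' sample codes run in separate blocks for the limitations, so an order of handling, if the codes hold one, and the limitation cannot be told apart.

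At 30 °C, 1452 genes differed between the limitations at an adjusted p under 0.05 in limma, which is 26.9% of the genes tested. Signals were higher under nitrogen limitation for 771 of them (14.3% of all genes) and higher under carbon limitation for 681 (12.6%). Which direction held more genes depended on the scaling and on 1 array: the counts were 669 and 785 after median scaling, 764 and 837 after quantile normalization, and 503 and 512 without nitrogen-limited replicate 2. The change was at least 2-fold for 542 genes, 288 toward nitrogen and 254 toward carbon limitation, and at least 4-fold for 68 genes, 43 and 25. The 3 arrays of one limitation lay entirely above the 3 of the other for 2768 genes, 51.3% of those tested, so such a separation on its own is common. Over all genes the median log2 difference, nitrogen minus carbon limitation, was 0.04. Below, a gene rose or fell under nitrogen limitation only where it passed this threshold, and each list of genes is to be read against 14.3%, 12.6% and 0.04.

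The largest rise was that of GAP1, the general amino acid permease, whose signal was 82.3, 85.3 and 70.1 under carbon limitation and 3132, 3468 and 3911 under nitrogen limitation. The groups did not overlap, and the difference was 44.2-fold (5.47 ± 0.17 on the log2 scale, SE, adjusted p = 6.33e-12). DAL5, a permease for allantoate and dipeptides, followed with 97.9, 102 and 72.7 under carbon limitation and 2519.9, 2799.5 and 2606 under nitrogen limitation, a 29.3-fold rise. OPT2, an oligopeptide transporter, read 66.4, 48.9 and 68.2 under carbon limitation and 1772, 1493 and 1724 under nitrogen limitation. At the other end stood GNP1, a permease for glutamine and other amino acids, at 19.4, 12.9 and 17.0 under nitrogen limitation and 549, 396 and 524 under carbon limitation. Its signal was 29.9-fold lower under nitrogen limitation (-4.90 ± 0.25 on the log2 scale, adjusted p = 1.37e-09), and its nitrogen-limited arrays lay just above the floor. Permeases and sugar transporters make up much of the plot of these genes by array.

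**Figure D1:**
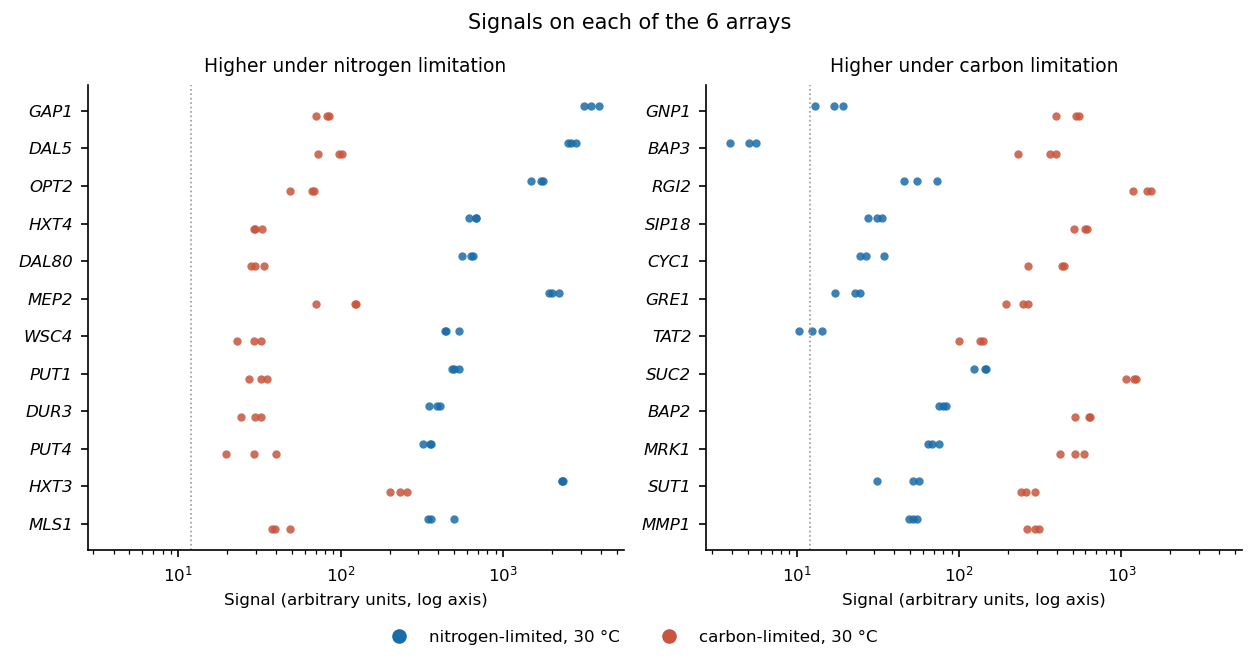
Signals (log axis, arbitrary units) of the 12 named genes with the largest rise (left) and the largest fall (right) under nitrogen limitation, 1 point per array, with carbon-limited arrays in red, nitrogen-limited arrays in blue and the floor of 12 as a dotted line. The groups do not overlap for any of these genes, which was part of how they were chosen.

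Of the GATA factors and other nitrogen regulators, 5 of 16 rose and none fell, and the median log2 difference was 0.50. DAL80, a repressor that is itself a target of nitrogen catabolite repression, read 28.1, 29.8 and 33.8 under carbon limitation and 559.8, 649 and 634 under nitrogen limitation. That was a 20.1-fold rise with no overlap between the groups (adjusted p = 1.38e-07). GAT1, an activator of the same targets, rose 6.97-fold, from 64.3 ± 12.3 to 444 ± 42.5 (SD, n = 3). UME6, UGA3 and DAL82 rose by 1.06, 0.74 and 0.64 on the log2 scale, the last being an activator of allantoin genes. These 3 calls were not stable: UME6 was lost without carbon-limited replicate 1 or 2 or nitrogen-limited replicate 3 (adjusted p up to 0.135), UGA3 without carbon-limited replicate 1 (adjusted p = 0.0512) and DAL82 without any 1 array other than carbon-limited replicate 2 (up to 0.170), so that 2 regulators rose without carbon-limited replicate 1 and 3 without nitrogen-limited replicate 3. UGA3 was also lost with the mean of its probe sets (adjusted p = 0.155). DAL82 was lost under median scaling, quantile normalization or no filter on dim genes (up to 0.0615). UME6 was lost with a floor of 50, with no filter or on the 6 arrays at 30 °C alone (up to 0.122). The activator GLN3 read 20.1, 19.3 and 27.9 under carbon limitation and 33.2, 30.4 and 28.8 under nitrogen limitation (log2 difference 0.48 ± 0.19, adjusted p = 0.0790) and did not pass. Neither did URE2, which holds Gln3 outside the nucleus, at -0.28 (adjusted p = 0.307), nor GCN4, the activator of amino acid synthesis, at 0.04 (adjusted p = 0.866). The remaining members, none of them called, were the repressor GZF3 at 0.72, STP2 at 0.60 and STP1 at -0.04, which act downstream of the amino acid sensor SSY1 (-0.09), the activators DAL81 (0.52) and PUT3 (0.40), and the arginine regulators ARG80 (-0.13) and ARG81 (0.43).

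All 3 ammonium permease genes rose. MEP2, the high-affinity permease that also acts as an ammonium sensor, read 124, 70.4 and 122 under carbon limitation and 1914, 2209 and 2003 under nitrogen limitation, a 19.9-fold rise. MEP1 rose 5.26-fold to 457 ± 15.3 and MEP3 3.62-fold to 122 ± 6.56 (SD, n = 3). Among the assimilation enzymes, GLT1 (glutamate synthase) rose 3.06-fold and GLN1 (glutamine synthetase) 2.03-fold. GLT1 read 326, 335 and 356 under carbon limitation and 1090.3, 1091 and 940.4 under nitrogen limitation, and GLN1 read 1454, 1415 and 1654 under carbon limitation and 2533, 3349.8 and 3351 under nitrogen limitation, in neither case with overlap. The glutamate dehydrogenase genes were not called: GDH1 differed by 0.22 ± 0.16, GDH2 by 0.28 ± 0.23 and GDH3 by -0.18 ± 0.27 on the log2 scale. NPR1, a kinase that keeps permeases such as Gap1 at the plasma membrane, rose 2.32-fold. ATO2 and ATO3, members of a family linked to ammonium export, fell, ATO3 from 279 ± 55.8 to 74.7 ± 8.85 and ATO2 2.84-fold. PAR32 was not called, at 0.00. In all, 6 of 12 listed genes rose and 2 fell, with a median of 0.65.

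The amino acid permeases split, with 8 of 22 higher under nitrogen limitation, 9 lower and a median of -0.04. Those that rose included, after GAP1, the proline permease PUT4 at 39.7, 29.1 and 19.8 under carbon limitation and 361, 321 and 356 under nitrogen limitation, a 12.2-fold rise. The GABA permease UGA4 rose 4.18-fold and the arginine permease CAN1 3.29-fold. After GNP1, the largest falls were those of permeases for branched-chain and aromatic amino acids, which respond to amino acids outside the cell. BAP3 read 3.90, 5.60 and 5.10 under nitrogen limitation and 361, 232 and 393 under carbon limitation, under the floor on all 3 nitrogen-limited arrays, so it was at least 26.7-fold higher under carbon limitation. TAT2, for tryptophan and tyrosine, read 14.4, 12.4 and 10.4 under nitrogen limitation and 134, 100.5 and 139.7 under carbon limitation, and BAP2 read 83.4, 80.2 and 75.7 under nitrogen limitation and 641, 628 and 518 under carbon limitation. Neither pair of groups overlapped, and the falls were 9.59-fold and 7.44-fold. MMP1, for S-methylmethionine, fell 5.57-fold and MUP1, for methionine, 4.68-fold. AGP1, a broad permease, fell 2.25-fold.

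The plot of uptake genes sets these values beside those at 12 °C. The log2 difference of GAP1 was 0.72 at 12 °C, against 5.47 at 30 °C, and that of BAP3 was 0.28 against -4.74, the latter a bound set by the floor. The plot also holds the hexose transporters described further on.

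**Figure D2:**
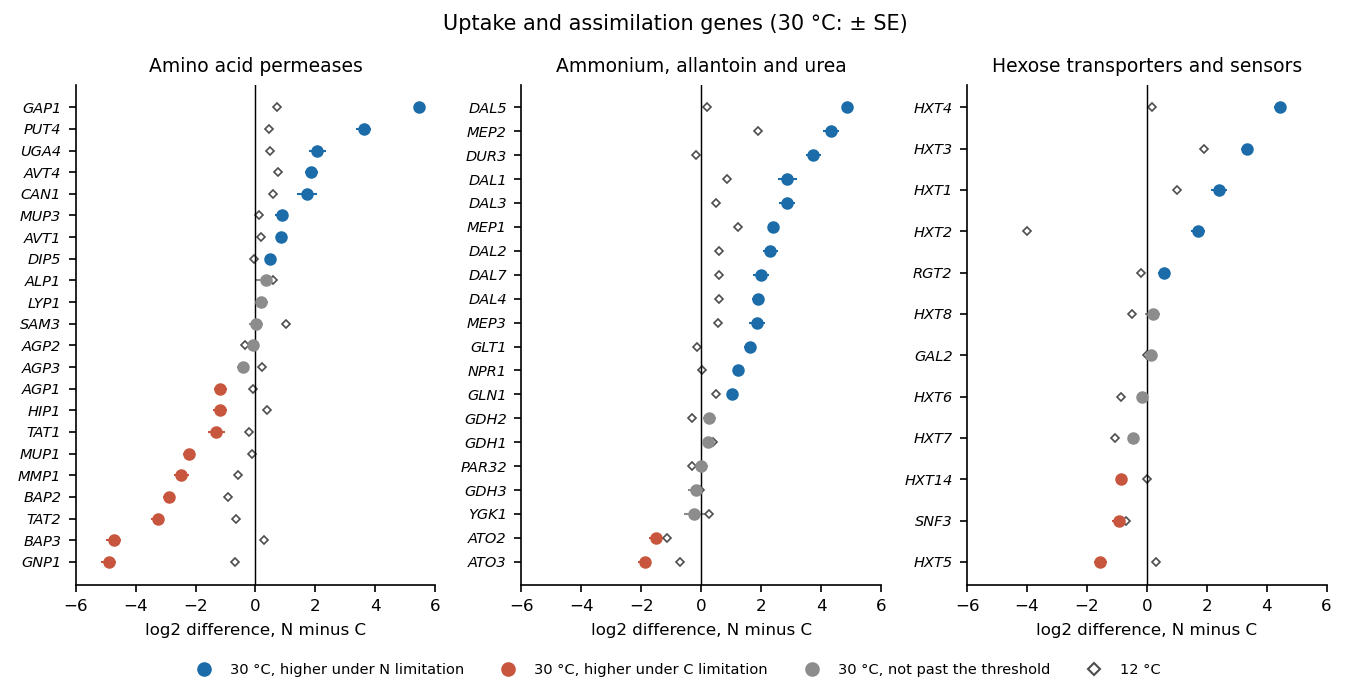
Log2 difference between nitrogen and carbon limitation of amino acid permeases, of genes for ammonium, allantoin and urea, and of hexose transporters and sensors. Filled points are the 30 °C values with their SE, coloured by call, and open diamonds are the same difference at 12 °C; for GAP1 it was 5.47 and 0.72, for HXT2 1.71 and -3.99. All 12 °C arrays of HXT14 lay at or under the floor, so its open diamond at 0 is no measured effect.

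Genes for nitrogen sources other than ammonium and amino acids formed the list with the largest share of rises. Of 8 tested genes for the uptake and breakdown of allantoin and urea, 7 rose and none fell, with a median of 2.58, and the other member, YGK1, was at -0.22. DUR3, the urea transporter, read 29.7, 24.4 and 32.5 under carbon limitation and 393, 409 and 348 under nitrogen limitation, a 13.4-fold rise. DAL1, DAL2 and DAL3, enzymes of allantoin breakdown, rose 7.34-fold, 4.95-fold and 7.25-fold, the first from 31.7 ± 9.43 to 226 ± 6.30 (SD, n = 3). DAL4, the allantoin permease, rose 3.68-fold and DAL7, a malate synthase of this pathway, 4.01-fold. In the R64 gene table DAL1, DAL4, DAL2, DCG1, DAL7 and DAL3 follow each other on chromosome IX, and DCG1 read 8.50, 14.3 and 10.2 under carbon limitation and 50.3, 53.0 and 51.7 under nitrogen limitation, a call that was lost with a floor of 50 (adjusted p = 0.604). The genes just outside this run, YVH1 and MGA2, differed by -0.63 (adjusted p = 0.0943) and 0.07 (adjusted p = 0.840) and were not called. The wider list of peptide and other nitrogen transporters had 9 rises and 1 fall among 14 genes, with a median of 1.11. PTR2, a carrier of di- and tripeptides, read 295, 229 and 261 under carbon limitation and 1039.6, 932 and 595 under nitrogen limitation. VBA1, a vacuolar carrier of basic amino acids, read 134, 143 and 148 under carbon limitation and 1369, 1266 and 1058 under nitrogen limitation, an 8.66-fold rise, and the single fall was that of the uridine permease FUI1, 2.09-fold.

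Among 10 genes for breaking down proline, arginine, GABA and asparagine and related compounds, 3 rose and 1 fell. PUT1, which starts proline breakdown in mitochondria, read 35.3, 32.2 and 27.1 under carbon limitation and 499.7, 538 and 486 under nitrogen limitation, a 16.2-fold rise (adjusted p = 1.71e-09). PUT2, the next enzyme of that pathway, rose 2.09-fold. CHA1, for serine and threonine breakdown, lay at or under the floor on the 3 carbon-limited arrays and at 34.7, 34.7 and 36.2 under nitrogen limitation, at least 2.93-fold higher. The arginase gene CAR1 and the GABA genes UGA1 and UGA2 were not called, at 0.58, 0.19 and 0.41 on the log2 scale, and ASP1, an asparaginase, fell from 463 ± 22.5 to 239 ± 31.5. Of 11 genes for breaking down branched and aromatic amino acids to fusel alcohols, 5 rose and 1 fell. ARO10, the phenylpyruvate decarboxylase, lay under the floor on all carbon-limited arrays and at 27.9, 20.6 and 23.8 under nitrogen limitation, at least 1.99-fold higher. The transaminase ARO8 rose by 0.85 on the log2 scale, and the single fall was that of ADH6, an alcohol dehydrogenase, from 342 ± 23.5 to 169 ± 20.3. The pyruvate decarboxylase gene PDC5, which also acts in this pathway, read 51.5, 65.7 and 51.4 under carbon limitation and 412, 461 and 403 under nitrogen limitation, a 7.61-fold rise.

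Of 64 amino acid synthesis genes, 9 rose and 15 fell, with a share of rises close to that over all genes, and the median was -0.03. LYS2, of lysine synthesis, rose 2.25-fold. SER1, of serine synthesis, fell 2.18-fold, from 661 ± 44.9 to 303 ± 16.3, and LEU9, of leucine synthesis, 2.53-fold. The counts rested on single arrays: rises numbered 3 to 5 without carbon-limited replicate 1, 2 or 3 or nitrogen-limited replicate 2 or 3, and falls 8 or 9 without carbon-limited replicate 1 or nitrogen-limited replicate 1 or 2. Median scaling left 5 rises.

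Vacuolar proteases and autophagy genes rose more often than they fell, 13 against 1 of 40, with a median of 0.28. CPS1, vacuolar carboxypeptidase S, read 25.6, 20.5 and 22.9 under carbon limitation and 294, 209.7 and 95.4 under nitrogen limitation. Its nitrogen-limited arrays spread over a wide range, but the lowest was above every carbon-limited array, and the rise was 7.88-fold. APE1, an aminopeptidase carried to the vacuole by the autophagy machinery, rose 3.94-fold, from 308 ± 44.6 to 1210.4 ± 124 (SD, n = 3). ATG8, whose protein coats the growing autophagosome, rose 1.97-fold, ATG14 2.09-fold and ATG32, the receptor for mitochondria, 2.15-fold. The proteasome list gave 6 rises and no fall among 38 genes, a share of rises close to the 14.3% over all genes, led by PUP1 at 1.80-fold. Its rises numbered 2 without carbon-limited replicate 1 or 2 or nitrogen-limited replicate 2, and 3 without nitrogen-limited replicate 3.

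On the carbon side, hexose transporter genes changed in both directions. HXT4, of intermediate affinity, read 32.6, 29.5 and 29.4 under carbon limitation and 684, 615 and 679 under nitrogen limitation, a 21.6-fold rise (adjusted p = 2.93e-10). HXT3, of low affinity, read 256, 202 and 231 under carbon limitation and 2340.4, 2296 and 2298 under nitrogen limitation, a 10.1-fold rise. Neither overlapped between the groups. HXT1, of low affinity and induced by high glucose, was under the floor on all carbon-limited arrays and at 71.3, 54.6 and 65.7 under nitrogen limitation, at least 5.29-fold higher. HXT2, of high affinity, rose 3.27-fold, from 214 ± 28.6 to 696 ± 24.3. HXT5, which is linked to slow growth, fell 2.93-fold, to 165 ± 25.1. Of the high-affinity genes, HXT6 read 2807, 2692 and 3585 under carbon limitation and 2638, 2343 and 3192 under nitrogen limitation and HXT7 read 2539, 2441 and 3110.4 under carbon limitation and 1943, 1800.2 and 2166 under nitrogen limitation. The groups overlapped for HXT6 and not for HXT7, and neither gene was called (adjusted p = 0.585 and 0.0816). Their sequences are nearly identical and their probe set names carry a suffix that can mark shared probes, so each may read the other. In all, 5 of 12 rose and 3 fell, the fifth rise being the sensor gene RGT2 by 0.57, which was lost without any 1 of the 6 arrays (adjusted p from 0.0609 to 0.156). SNF3, the sensor for low glucose, fell 1.92-fold, and HXT14, under the floor on all nitrogen-limited arrays, was at least 1.82-fold higher under carbon limitation.

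Of the carbon and stress regulators, 8 of 24 rose and 2 fell. MIG2, a repressor made when glucose is plentiful, lay under the floor on all carbon-limited arrays and at 124, 82.1 and 86.9 under nitrogen limitation, at least 7.99-fold higher. STD1, which acts with Rgt1 on hexose transporter genes, rose 6.13-fold and RGT1 2.55-fold. MIG1 itself was not called at 0.22, and neither was MTH1, the paralog of STD1, at 0.02. The falls were those of HAP4, the limiting subunit of the activator of respiratory genes, from 269.8 ± 14.1 to 119 ± 16.8, and of ADR1, an activator of ethanol and fatty acid use, 1.67-fold. The number of rises was 4 without carbon-limited replicate 1 or nitrogen-limited replicate 2 and 5 without carbon-limited replicate 2 or nitrogen-limited replicate 1.

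Of 13 genes for other sugars, 6 fell under nitrogen limitation and none rose. SUC2, invertase, read 144, 123 and 147 under nitrogen limitation and 1188, 1068 and 1231 under carbon limitation, 8.42-fold lower under nitrogen limitation. MAL31 and MAL11, maltose permeases, were 5.08-fold and 3.56-fold lower, MAL31 at 189, 175 and 216 under nitrogen limitation and 979, 980.0 and 974 under carbon limitation. The probe sets of SUC2 and MAL31 carry the suffix for possibly shared probes, and both genes have close copies. MAL33, an activator of maltose genes, fell 2.83-fold, the isomaltase gene IMA1 2.36-fold and GAL4, the activator of galactose genes, 2.00-fold.

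Gluconeogenesis and the use of compounds with few carbons gave 10 falls and 3 rises among 22 genes, with a median of -0.44. PCK1, which starts gluconeogenesis, read 109, 174 and 142 under nitrogen limitation and 668, 701 and 628 under carbon limitation, a 4.77-fold fall. FBP1, its last specific enzyme, fell from 36.0 ± 8.50 to 11.1 ± 2.86, with 1 nitrogen-limited array above the floor, and JEN1, the lactate transporter, fell 2.47-fold. MLS1, malate synthase of the glyoxylate cycle, moved against the list and read 49.0, 37.7 and 39.3 under carbon limitation and 343, 502 and 360.1 under nitrogen limitation, a 9.49-fold rise. ICL1, the other enzyme specific to that cycle, read 139.7, 113 and 113 under carbon limitation and 113, 169 and 174 under nitrogen limitation with overlap between the groups and was not called (adjusted p = 0.438), nor was ACS1, acetyl-CoA synthetase, at -0.18 (adjusted p = 0.515). The count of falls was 6 without carbon-limited replicate 1 or nitrogen-limited replicate 2.

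Genes of glycolysis, ethanol and glycerol formation held 8 rises and 2 falls among 28 genes, with a median of 0.08, and median scaling left 5 rises. TDH3 (log2 difference -0.05 ± 0.25), ADH1 (0.02 ± 0.15) and PFK1 (0.20 ± 0.14) were not called, while PDC1 rose 1.45-fold and the pyruvate kinase gene CDC19 1.40-fold. PDC1 was lost without carbon-limited replicate 3 (adjusted p = 0.0541), and CDC19 without carbon-limited replicate 1 or 3 or nitrogen-limited replicate 2 (up to 0.0705). GPD1, the first enzyme of glycerol formation, rose 2.53-fold, from 354 ± 42.8 to 895 ± 80.5, and GUT2, of glycerol use, fell 2.25-fold. The rises numbered 3 without carbon-limited replicate 3 and 5 without carbon-limited replicate 1 or nitrogen-limited replicate 2. The pentose phosphate list gave 4 falls and no rise among 13, with NQM1, a transaldolase, at 44.6, 36.3 and 49.0 under nitrogen limitation and 153, 97.5 and 168 under carbon limitation and its paralog TAL1 at -0.90 on the log2 scale. ZWF1, the first enzyme of that pathway, was not called at 0.02 ± 0.29. In the trehalose and glycogen list 7 of 24 rose and 2 fell, with TSL1 of the trehalose synthase complex by 1.09 and the glycogen phosphorylase GPH1 by 0.94 on the log2 scale among the rises.

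Respiratory genes were higher under carbon limitation almost throughout the list, although both cultures were anaerobic. The list held 42 genes for the respiratory chain, the ATP synthase, lactate dehydrogenases and respiratory growth. Of these, 39 fell under nitrogen limitation and none rose, against 12.6% of all genes, and the median log2 difference was -1.05. RGI2, a gene of respiratory growth, read 55.1, 45.5 and 72.7 under nitrogen limitation and 1437, 1173 and 1521 under carbon limitation, 24.1-fold lower under nitrogen limitation (adjusted p = 1.10e-09). CYC1, the main cytochrome c of aerobic cells, read 24.7, 26.7 and 34.3 under nitrogen limitation and 440.0, 430.2 and 265 under carbon limitation, a 13.0-fold fall. No array of one group reached the other in either gene. By complex, 3 of 3 NADH dehydrogenase genes fell, 8 of 9 of complex III, both cytochrome c genes, 9 of 10 of complex IV and 12 of 12 of the ATP synthase. Outside these complexes, 5 of 6 lactate dehydrogenase and respiratory growth genes fell, RGI2 among them. Of the cytochrome c genes, the call of CYC7, the hypoxic form, was lost without carbon-limited replicate 1 or 3 or nitrogen-limited replicate 1 or 2 (adjusted p up to 0.0660). NDE1 and NDI1, the outer and inner NADH dehydrogenases, fell 3.25-fold and 2.51-fold, QCR2 of complex III 3.29-fold and ATP20 of the ATP synthase 3.79-fold.

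Subunit V of complex IV has an aerobic and a hypoxic form, of which the aerobic one fell and the hypoxic one was not called. COX5A, the aerobic form, read 166, 207 and 141 under nitrogen limitation and 975, 978 and 852 under carbon limitation, a 5.50-fold fall. COX5B, the hypoxic form, read 165, 162 and 203 under nitrogen limitation and 154, 204 and 134 under carbon limitation, and its log2 difference was 0.12 ± 0.28 (adjusted p = 0.779). QCR8 (adjusted p = 0.0568) and the lactate dehydrogenase gene CYB2 (adjusted p = 0.0958) were the other members that missed the threshold, at -1.09 and -0.94. Of the TCA cycle list, 12 of 28 fell and 2 rose, with a median of -0.41. SDH2 of succinate dehydrogenase, which is shared with the respiratory chain, had the largest fall, from 1979 ± 142 to 743 ± 135. Of the other subunit genes, SDH1 fell 2.44-fold and SDH4 also fell, with a log2 difference of -0.99. SDH3 was not called, at -0.20 (adjusted p = 0.584). PYC1, pyruvate carboxylase, fell 2.52-fold, and ODC2, a mitochondrial carrier of oxodicarboxylates, rose 2.51-fold.

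**Figure D3:**
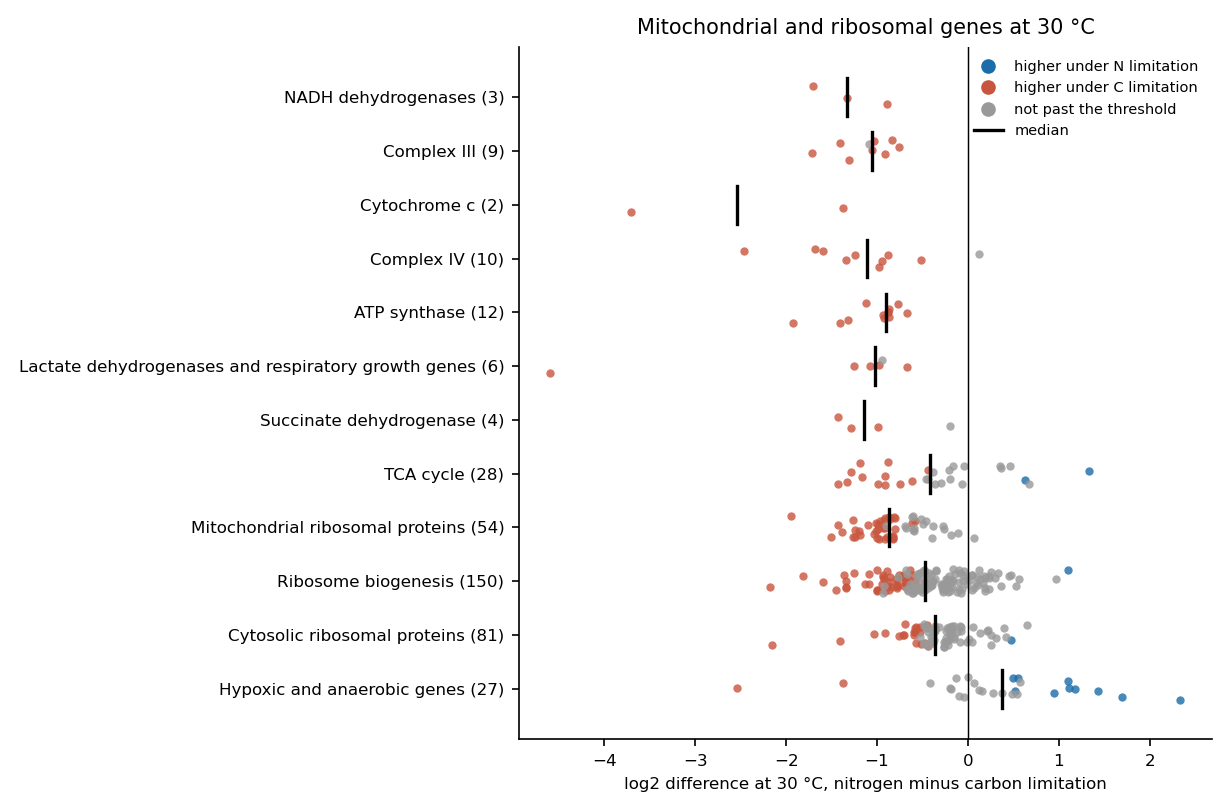
Log2 difference at 30 °C (nitrogen minus carbon limitation) of each tested respiratory gene by complex or group, and of genes of the TCA cycle, of mitochondrial and cytosolic ribosomal proteins, of ribosome biogenesis and of the hypoxic list. Each point is 1 gene, the number tested stands in parentheses and the black line is the median. Respiratory genes lie to the left of 0 apart from COX5B at 0.12. The hypoxic list has a median of 0.38.

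Genes of the hypoxic and anaerobic list, which also holds regulators such as ROX1 and MOT3, rose more often than they fell, 10 against 2 of 27. FET4, a low-affinity iron transporter, read 93.5, 97.8 and 63.4 under carbon limitation and 358, 503 and 417 under nitrogen limitation, a 5.06-fold rise. DAN4, a cell wall mannoprotein, rose 3.23-fold and HEM14, of heme synthesis, 2.16-fold. SUT1, a regulator of sterol uptake, read 31.2, 52.3 and 56.7 under nitrogen limitation and 259, 241 and 293 under carbon limitation, a 5.83-fold fall. ANB1 and TIR4, induced without oxygen, differed by 0.28 ± 0.17 and 0.16 ± 0.17 on the log2 scale and were not called. Genes of peroxisomal fatty acid breakdown split into 3 rises and 4 falls among 17. POT1, the thiolase, fell from 269 ± 57.7 to 100.2 ± 32.4, and FAA1, an acyl-CoA synthetase, rose 3.50-fold.

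Genes for making ribosomes fell more often than they rose under nitrogen limitation at the same growth rate, and most of them were not called. Of 150 ribosome biogenesis genes, 44 fell, 1 rose and 105 were not called, with a median of -0.47. NSR1, nucleolin, read 72.5, 73.3 and 75.2 under nitrogen limitation and 243, 357 and 423 under carbon limitation, a 4.51-fold fall. RCL1, of the small subunit processome, fell 3.51-fold and NOG2, a GTPase of large subunit export, 3.01-fold. Of 81 cytosolic ribosomal protein genes, 21 fell, 1 rose and 59 were not called, with a median of -0.36. RPL9A read 94.1, 47.5 and 71.6 under nitrogen limitation and 287, 368 and 269 under carbon limitation, a 4.46-fold fall, and RPS1B fell 2.65-fold. Both probe sets carry the suffix for shared probes, and most of these genes have a paralog. The count of ribosomal protein falls was 8 to 13 without any 1 of the 6 arrays (10, 11 and 8 without carbon-limited replicates 1, 2 and 3, and 12, 8 and 13 without nitrogen-limited replicates 1, 2 and 3), 13 without the intensity trend, 34 after quantile normalization and 37 on the 6 arrays at 30 °C alone.

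Purine and pyrimidine synthesis fell in 13 of 28 genes and rose in none, with a median of -0.37. ADE4, which commits to purine synthesis, fell from 36.9 ± 6.23 to 12.8 ± 4.10. PRS3, which makes the shared precursor, read 179, 122 and 149 under nitrogen limitation and 389, 391 and 393 under carbon limitation, a 2.63-fold fall, and URA7, a CTP synthase, fell 2.29-fold. IMD3, of GMP synthesis, fell 2.10-fold, with a probe set that may be shared with its paralogs. Without carbon-limited replicate 2 there were 8 falls. tRNA synthetases and translation factors gave 9 falls and no rise among 52, led by CAM1, a subunit of elongation factor eEF1B, at -1.10, and there were 5 falls without carbon-limited replicate 1 or 3. RNA polymerase I and III gave 5 falls and 1 rise among 40, the falls close to the share over all genes, with RPA49 of polymerase I at -1.51, 10 falls under median scaling, 8 under quantile normalization or on the 6 arrays alone, and 3 without nitrogen-limited replicate 3.

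Stress genes did not move as 1 block. Of 59 general stress genes, 15 rose and 15 fell, with a median of -0.06. SIP18 and GRE1, hydrophilins tied to desiccation and salt stress, had the largest falls. SIP18 read 27.5, 33.7 and 31.4 under nitrogen limitation and 600.2, 509 and 613 under carbon limitation, and GRE1 read 24.7, 22.8 and 17.3 under nitrogen limitation and 246, 195 and 267 under carbon limitation, which are falls of 18.6-fold and 11.0-fold with no overlap. ALD2, a cytosolic aldehyde dehydrogenase, read 23.8, 35.8 and 24.0 under carbon limitation and 214, 149 and 145 under nitrogen limitation, a 6.09-fold rise, and MRH1, a membrane protein, rose 3.13-fold. Heat shock chaperones gave 4 rises and 2 falls among 33, fewer than the share over all genes in each direction, with SSA2, a cytosolic Hsp70, at 1.02 on the log2 scale. MRK1, a kinase of the glycogen synthase kinase family, fell from 507 ± 82.0 to 69.2 ± 5.65, and WSC4, a cell wall stress sensor, rose 16.9-fold, from 28.1 ± 4.73 to 471 ± 53.0 (SD, n = 3).

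**Figure D4:**
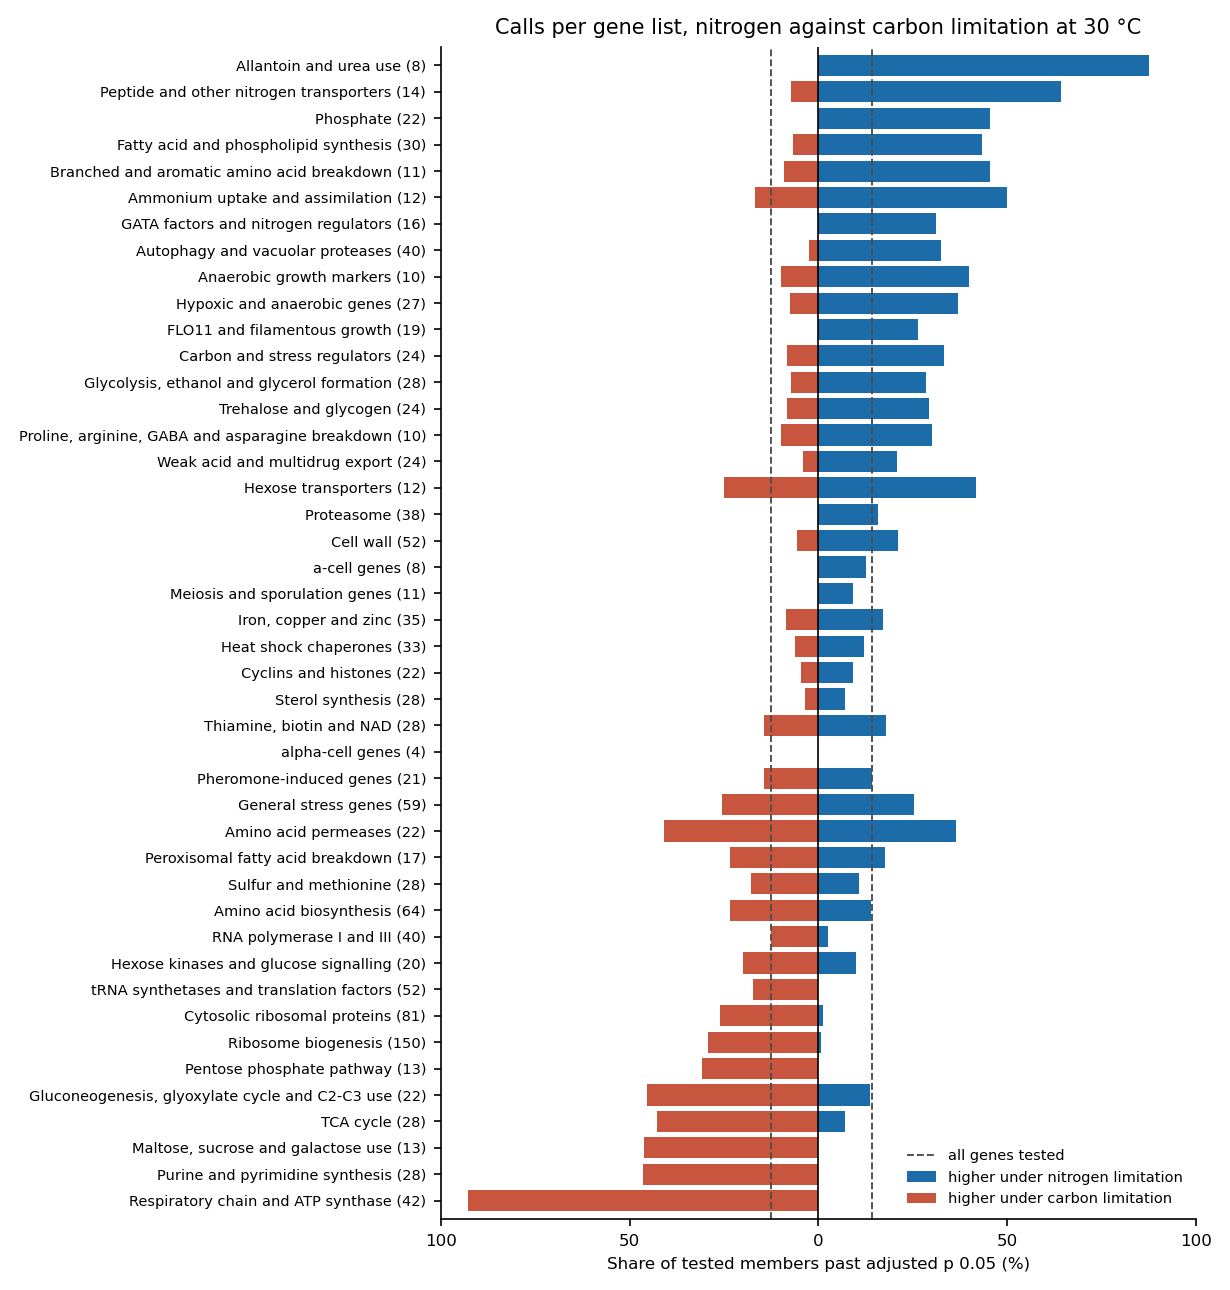
Share of the tested members (number in parentheses) of each gene list past an adjusted p of 0.05 at 30 °C, with higher signals under nitrogen limitation to the right in blue and under carbon limitation to the left in red. Dashed lines mark the shares over all 5400 genes, 14.3% and 12.6%; some genes belong to more than 1 list. Allantoin and urea use stands at the top with 7 of 8, and the respiratory chain at the bottom with 39 of 42.

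Among lists for other nutrients, 10 of 22 phosphate genes rose and none fell, with a median of 0.41, while metal, sulfur and vitamin lists had shares closer to those over all genes. SPL2, an inhibitor of low-affinity phosphate uptake, read 11.6, 13.2 and 14.8 under carbon limitation and 46.5, 47.8 and 55.4 under nitrogen limitation, and the high-affinity transporters PHO84 and PHO89 rose 2.05-fold and 2.11-fold. VTC1, of polyphosphate synthesis, rose 2.23-fold. ZRT1, the high-affinity zinc transporter, read 187, 142 and 127 under carbon limitation and 714, 597 and 644 under nitrogen limitation, a 4.34-fold rise, and its activator ZAP1 rose by 0.91 on the log2 scale, within a metal list of 6 rises and 3 falls among 35. SNO1 and SNZ1, of vitamin B6 synthesis, fell 4.90-fold and 2.51-fold. In the sulfur and methionine list, with 3 rises and 5 falls among 28, MHT1, a methyltransferase of S-methylmethionine use, fell from 109 ± 8.37 to 31.1 ± 3.48, as its permease MMP1 did. The falls of that list numbered 2 without carbon-limited replicate 1 or 2 or nitrogen-limited replicate 1, and 3 without nitrogen-limited replicate 2 or 3.

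Lipid and cell surface genes rose more often than they fell, though few sterol synthesis genes were called. Fatty acid and phospholipid synthesis gave 13 rises and 2 falls among 30, with a median of 0.41, and 7 or 8 rises without carbon-limited replicate 1 or 3 or nitrogen-limited replicate 1 or 2. INO1, the first enzyme of inositol synthesis, read 144, 162 and 126 under carbon limitation and 683, 619.9 and 539 under nitrogen limitation, a 4.27-fold rise. Sterol synthesis gave 2 rises and 1 fall among 28, fewer than the share over all genes in each direction, with HES1, an oxysterol-binding protein, up 3.89-fold. FLO11, the adhesin of filamentous growth, read 869, 434 and 428 under carbon limitation and 2202, 1913 and 2064 under nitrogen limitation, a 3.78-fold rise, and RIM101 and PHD1, regulators of such growth, rose 2.11-fold and 1.85-fold. The cell wall list had 11 rises and 3 falls among 52, with GSC2, a glucan synthase, up 2.37-fold. TPO2, a polyamine exporter, rose from 19.7 ± 6.67 to 155 ± 18.1, with a suffix on its probe set, and AQR1, an exporter of weak acids and amino acids, fell 3.82-fold. Neither cyclins and histones (2 rises and 1 fall among 22) nor meiosis genes (1 rise among 11) stood above the share of all genes. Among the remaining lists of the plot of calls, hexose kinases and glucose signalling gave 2 rises and 4 falls of 20, pheromone response 3 and 3 of 21, and weak acid and multidrug export 5 and 1 of 24. Thiamine, biotin and NAD gave 5 rises and 4 falls of 28, with 3 rises without carbon-limited replicate 1 or 2 or nitrogen-limited replicate 2 or 3.

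Some genes were measured under 1 limitation only. There were 36 genes at or under the floor on all carbon-limited arrays and above it on all nitrogen-limited arrays, and 13 the other way. Besides MIG2, HXT1 and CHA1, the brightest of the 36 included PNS1, a putative choline transporter homolog, at 52.8, 38.8 and 47.8 under nitrogen limitation, at least 3.84-fold higher. The brightest of the 13, after BAP3, was YIG1, which is linked to glycerol formation, at 70.6, 69.8 and 49.0 under carbon limitation, at least 5.19-fold higher. Of 395 tested genes with only a systematic name, 33 rose and 14 fell at least 2-fold.

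To ask whether the limitation acts alike at another temperature, the same difference was taken at 12 °C, on 6 other arrays. Those arrays separated less by limitation: arrays of 1 group correlated at 0.952 to 0.981 and arrays of different limitations at 0.930 to 0.972, and carbon-limited replicate 1 at 12 °C was closer to nitrogen-limited replicate 3 (0.972) than to its own group (0.970 and 0.969). At 12 °C 306 genes differed, 5.67% of those tested, 98 toward nitrogen and 208 toward carbon limitation. The difference between the effects at the 2 temperatures passed the threshold for 402 genes (7.44%), with 245 shifted toward nitrogen and 157 toward carbon limitation at 30 °C. It was 378 without the pair of 12 °C arrays named above, and 246, 249, 261 and 248 without carbon-limited replicate 1 or 2 or nitrogen-limited replicate 1 or 2 at 30 °C. Of the 1452 genes called at 30 °C, 162 (11.2%) were called in the same direction at 12 °C, 11 in the opposite direction and 1279 not at all. A gene not called at 12 °C is not thereby shown to be unchanged there. Of the 542 genes called with at least a 2-fold change at 30 °C, 412 had the same sign at 12 °C, and the difference passed for 236. The median gene SD (log2) under carbon and nitrogen limitation was 0.256 and 0.278 at 12 °C, against 0.176 and 0.181 at 30 °C. Across genes the effects at the 2 temperatures correlated at r = 0.39, a description over genes, which are not independent.

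GAP1 rose far less at 12 °C than at 30 °C, and the allantoin and urea genes that rose at 30 °C were not called at 12 °C. For GAP1, the signals at 12 °C were 175, 115 and 134 under carbon limitation and 231, 227 and 231 under nitrogen limitation, all far below the nitrogen-limited signals at 30 °C. The effect was 5.47 at 30 °C and 0.72 at 12 °C, a difference of 4.74 ± 0.25 (SE, adjusted p = 6.74e-09). DAL5 gave 4.87 and 0.20 and DUR3 3.74 and -0.18, with adjusted p = 6.74e-09 and 2.88e-06 for the difference. All 7 allantoin and urea genes called at 30 °C differed between the temperatures, and none of the list was called at 12 °C. The difference of DAL7 (adjusted p = 0.0334) was lost without any 1 of the 30 °C arrays other than carbon-limited replicate 2, and without carbon-limited replicate 2 or 3 or nitrogen-limited replicate 1 or 2 at 12 °C (adjusted p up to 0.0931). MEP2 rose at both, by 4.32 and 1.90.

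Sugar genes went several ways. HXT2 reversed: at 12 °C it read 537, 408 and 726 under carbon limitation and 46.7, 26.6 and 31.7 under nitrogen limitation, an effect of -3.99 against 1.71 at 30 °C, and the difference was 5.70 ± 0.32 (adjusted p = 1.49e-08). HXT4 rose at 30 °C and was not called at 12 °C, where its effect was 0.16 (adjusted p of the difference = 7.44e-08). SUC2 and MAL31 fell at both temperatures, with effects of -3.07 and -3.50 for SUC2 and -2.34 and -2.39 for MAL31, and their differences of 0.43 ± 0.33 and 0.04 ± 0.27 did not pass (adjusted p = 0.472 and 0.948), with standard errors that leave room for a moderate difference. PDC5 rose at both, by 2.93 and 2.55 (adjusted p of the difference = 0.351). Among the falls, the effects on SIP18 and BAP3 differed between the temperatures by -3.93 and -5.02 (adjusted p = 1.27e-05 and 9.64e-08), where the value of BAP3 is a bound. The respiratory list had 14 falls at 12 °C with a median of -0.45, against 39 and -1.05 at 30 °C, and the difference itself passed for 10 of the 42 genes. The trehalose and glycogen list had 7 falls and no rise at 12 °C, and the difference passed for 5 of its 24 genes, all shifted toward nitrogen limitation at 30 °C.

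**Figure D5:**
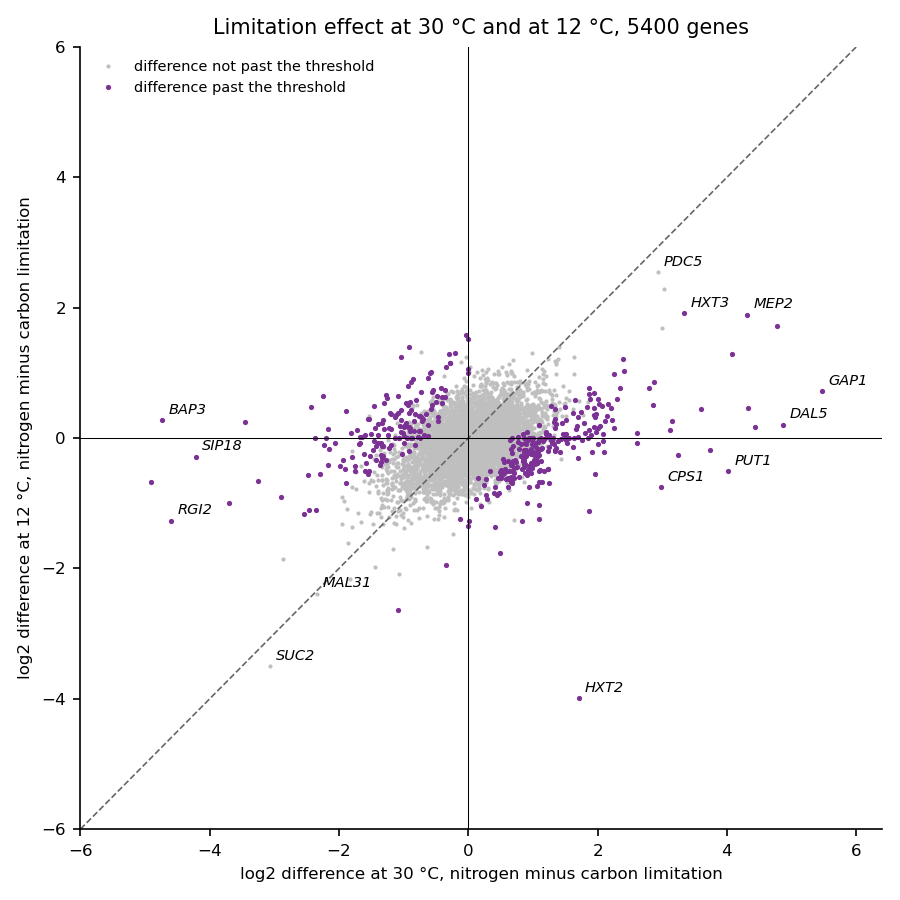
Log2 difference between nitrogen and carbon limitation at 12 °C (vertical) against that at 30 °C (horizontal), 1 point per gene, with genes whose effects differ past the threshold in purple and equal effects on the dashed line. GAP1 and DAL5 lie far to the right near 0 on the vertical axis, HXT2 stands at 1.71 and -3.99 with opposite signs, and SUC2, MAL31 and PDC5 lie near the dashed line.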

How the data were processed

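Labelled polyA RNA of 12 chemostat cultures was hybridised to Affymetrix yeast GeneChip arrays, 1 per culture. The deposited values are linear signal intensities of 9335 probe sets, made with GCOS per the submitters' processing notes. The software version, the signal algorithm and the target level were not stated in the labels. In the file, the mean after trimming 2% at each end is 150.1 on all 12 arrays, so the authors had scaled the intensity values. Replicates were independent cultures, per the labels' protocols.

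Of the probe sets, 6504 had 1 gene in the platform annotation, 328 had several and 2503 were not listed, 60 of them array controls. Gene symbols were updated through the R64 gene table. The brightest probe set stood for each of 5656 genes, signals under 12 were set to 12, and 256 genes above 12 on fewer than 3 of the 12 arrays were left out. Log2 signals of 5400 genes were fitted with limma 3.58.1 in R 4.3.3 (4 group means over 12 arrays, eBayes with an intensity trend), with Benjamini-Hochberg adjustment over all genes and a threshold of 0.05. Fold changes are ratios of the fitted log2 means, and for genes at 12 on all arrays of a group they are lower bounds, written "at least". An exact permutation test of 3 arrays against 3 cannot go below p = 0.1 and was not used. The script was tested on simulated data.

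The comparison and the gene lists were chosen with earlier results of these data known, and p-values were adjusted over all genes and not over any list. Named genes were, by rule, the 12 largest changes each way with groups that did not overlap, up to 5 called members of each list with the largest changes and the largest one against its majority, all members of lists of up to 16 genes (some of which stand only in the counts), the 6 brightest each way among genes at 12 under the other limitation, and the 8 largest differences each way between temperatures. UGA4, CAN1, MUP1, AGP1, DCG1, ICL1, ATG8, NDE1, NDI1, QCR8, CYB2, ACS1, PDC1, CDC19, TDH3, ADH1, PFK1, HEM1, HEM3 and the genes next to DAL1 and DAL3 were named after their values were seen, as were the lists of mitochondrial ribosomal proteins, heme synthesis and small RNAs. Alternatives were median scaling, quantile normalization, floors of 50 and 4, no filter, the mean of probe sets, the 6 arrays at 30 °C alone, no intensity trend, the replicate number as a block and each array left out. Promoter and protein sequences were not analysed here.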

Additional observations from a re-analysis of the deposited data

Results flagged for a closer look

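The effect of the limitation differed between 30 °C and 12 °C, by the interaction contrast of the limma fit, for 402 genes of all those tested, and for the genes named here as follows. Values are log2 effects at 30 °C minus those at 12 °C, and a positive value means a shift toward nitrogen limitation at 30 °C. For CHA1, ARO10, FUI1, HXT14 and YIG1 all 12 °C arrays lay at or under the floor, so that the value only restates the effect at 30 °C and is no measured difference between temperatures; 17 of the 402 genes were of this kind. BAP3, HXT1 and PNS1 at 30 °C, and HXT5, RGI2 and MUP1 at 12 °C, had 1 limitation at or under the floor on all arrays, so that the floor sets part of their values. With 3 arrays in a group, no group was large enough for the test for single outlying arrays.

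Among nitrogen genes the differences were 4.74 for GAP1, 4.67 for DAL5, 4.52 for PUT1, 3.92 for DUR3, 3.86 for DAL80, 3.15 for PUT4, 3.06 for OPT2, 2.99 for VBA1, 2.42 for MEP2 and 1.18 for MEP1. They were 2.36 for DAL3, 2.01 for DAL1, 1.70 for DAL2, 1.50 for DCG1, 1.40 for DAL7 and 1.28 for DAL4, in the run of neighbours on chromosome IX. Smaller positive values were those of GAT1 (2.04), GLT1 (1.76), UGA4 (1.58), CHA1 (1.55), PTR2 (1.48), NPR1 (1.20) and ARO10 (0.99). Permeases with negative values were BAP3 (-5.02, a bound), GNP1 (-4.23), TAT2 (-2.60), MUP1 (-2.12), BAP2 (-1.99), MMP1 (-1.90), ATO3 (-1.20) and FUI1 (-1.06).

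Among sugar and carbon genes, the differences were 5.70 for HXT2, 4.27 for HXT4, 1.42 for HXT3, 1.38 for HXT1, -1.84 for HXT5 and -0.87 for HXT14. They were 2.53 for STD1, 3.51 for MLS1, -2.90 for PCK1, 0.90 for GPD1, 2.33 for TSL1, 1.68 for GPH1 and -1.02 for TAL1. TSL1 and GPH1 had effects of opposite sign, 1.09 and 0.94 at 30 °C and -1.24 and -0.75 at 12 °C. Respiratory genes gave -3.32 for RGI2, -2.71 for CYC1, -1.85 for QCR2, -1.36 for COX5A, -1.09 for SDH2 and -1.57 for the mitochondrial ribosomal protein gene MRPL6.

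Ribosome, nucleotide and amino acid synthesis genes had negative values, -2.32 for NSR1, -1.99 for RPL9A, -1.88 for RCL1, -1.61 for PRS3, -1.48 for SER1, -1.24 for RPA49, -1.21 for NOG2, -1.10 for URA7, -1.07 for IMD3 and -1.04 for LEU9. Small RNA genes gave 1.64 for SNR14, 1.95 for SNR128 and -1.51 for SNR68. Stress and vitamin genes gave -3.93 for SIP18, -3.71 for GRE1, -1.75 for SNO1, -1.60 for SNZ1, 2.69 for ALD2 and 1.06 for MRH1. Vacuolar genes gave 3.74 for CPS1, 1.89 for APE1, 1.36 for ATG14 and 1.07 for ATG8.

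Surface, lipid, metal and phosphate genes gave 2.78 for WSC4, 2.51 for HES1, 2.31 for INO1, 2.14 for FLO11, 1.99 for DAN4, 1.93 for GSC2, 1.86 for SPL2, 1.85 for ZRT1, 1.73 for FAA1, 1.58 for FET4, 1.28 for PHO89, 1.28 for HEM14 and 1.21 for VTC1. The remaining values were 1.58 for PNS1, -2.38 for YIG1, -1.59 for AQR1, -1.37 for SUT1 and -1.52 for MF(ALPHA)2. MF(ALPHA)2 lay under the floor on all 30 °C arrays, and its value comes from the 12 °C arrays, 25.0, 33.3 and 28.7 under carbon limitation and 151, 53.6 and 69.5 under nitrogen limitation.

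Some of these differences rested on single arrays, and the highest adjusted p on leaving out 1 array follows in parentheses. ATG8 was lost without carbon-limited replicate 2 or 3 or nitrogen-limited replicate 1, 2 or 3 at 30 °C, or carbon-limited replicate 1 or 2 or nitrogen-limited replicate 1 or 2 at 12 °C (0.107). Without carbon-limited replicate 1 at 30 °C, ATO3 was lost (0.0672). That of DAL7 is given with the temperature comparison above. FAA1 was lost without carbon-limited replicate 2 or 3 or nitrogen-limited replicate 1, 2 or 3 at 30 °C, or carbon-limited replicate 1 or 3 or nitrogen-limited replicate 1 or 2 at 12 °C (0.107). Without carbon-limited replicate 1, 2 or 3 or nitrogen-limited replicate 1 or 3 at 30 °C, or carbon-limited replicate 3 or nitrogen-limited replicate 3 at 12 °C, HXT1 was lost (0.0827). The call of LEU9 did not hold without carbon-limited replicate 1 or 2 or nitrogen-limited replicate 1 or 2 at 30 °C (0.0689). MF(ALPHA)2 was lost without carbon-limited replicate 1, 2 or 3 or nitrogen-limited replicate 1, 2 or 3 at 30 °C, or carbon-limited replicate 1 or 3 at 12 °C (0.0699). Without carbon-limited replicate 2 or 3 or nitrogen-limited replicate 1, 2 or 3 at 30 °C, or nitrogen-limited replicate 3 at 12 °C, MRPL6 was lost (0.0701). The call of PHO89 did not hold without carbon-limited replicate 1, 2 or 3 or nitrogen-limited replicate 1 or 2 at 30 °C, or carbon-limited replicate 1 or nitrogen-limited replicate 2 or 3 at 12 °C (0.0923). PTR2 was lost without carbon-limited replicate 2 or nitrogen-limited replicate 1 or 2 at 30 °C (0.0735). Without nitrogen-limited replicate 1 at 30 °C, SDH2 was lost (0.0502). The call of SNR68 did not hold without carbon-limited replicate 1 or 3 or nitrogen-limited replicate 1 or 2 at 30 °C (0.0709). SUT1 was lost without carbon-limited replicate 1, 2 or 3 or nitrogen-limited replicate 1 or 2 at 30 °C, or carbon-limited replicate 1 or nitrogen-limited replicate 1 or 2 at 12 °C (0.118). Without carbon-limited replicate 1 or 2 or nitrogen-limited replicate 1 or 3 at 30 °C, or carbon-limited replicate 3 or nitrogen-limited replicate 3 at 12 °C, TAL1 was lost (0.0778). The call of UGA4 did not hold without carbon-limited replicate 2 or 3 or nitrogen-limited replicate 1 or 2 at 30 °C, or carbon-limited replicate 1 or nitrogen-limited replicate 2 at 12 °C (0.0702). URA7 was lost without carbon-limited replicate 2 or 3 or nitrogen-limited replicate 1, 2 or 3 at 30 °C, or carbon-limited replicate 1 or 3 at 12 °C (0.0785). Other settings ended more of these differences. ARO10 was lost with a floor of 4 (adjusted p = 0.254), FUI1 with floors of 50 and 4 (0.166 and 0.0956), DCG1 with a floor of 50 (0.773) and GPD1 under median scaling (0.0576). With the mean of probe sets GSC2 and NOG2 were lost (0.0782 and 0.0550). Of the genes that rested on single arrays, several were also lost under such settings, with the highest adjusted p for UGA4 with a floor of 4 (0.397).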

How the results depend on the processing

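No named gene that was called changed direction under any alternative in which it was tested, but the balance of all calls did, as the shares below show. The number of genes called at 30 °C was 1452, and ranged from 1281 with a floor of 50 to 2044 on the 6 arrays at 30 °C alone. The floor of 50 left 4161 genes to test, against 5400, so its 1281 calls were a larger share of those tested. Without each of the 6 arrays in turn, 1015 to 1086 genes were called. Genes higher under nitrogen limitation numbered 771, and 503 to 588 without each array, with nitrogen-limited replicate 2 giving the lowest. Genes higher under carbon limitation numbered 681, and 477 to 512. The share of calls that were higher under nitrogen limitation was 53.1%, 46.0% after median scaling and 47.7% after quantile normalization. The temperature difference was called for 402 genes, for 246 to 480 without each of the 12 arrays in turn and for 378 without the pair of 12 °C arrays that stood closest across limitations, an alternative chosen after seeing the data. Same-numbered arrays of the 2 limitations at 30 °C deviated together only weakly (correlations of 0.066, 0.102 and 0.107, where other pairs gave -0.126 to 0.020, so that each array correlated best with its own number). The labels give no meaning to the numbers, and the replicate block gave 1379 calls at 30 °C and 309 for the temperature difference. Of the 189 genes named, 148 were called at 30 °C, and 137 of these kept their call under all alternatives in which they were tested. Dim genes such as CHA1 and ARO10 were filtered out with a floor of 50 and so could not lose their call there. Of 91 called for the temperature difference, 69 kept it, with the same limit. Some named genes that were not called at 30 °C passed under an alternative. DAL81 and STP2 did so with a floor of 50 and on the 6 arrays alone, and HXT7 and HEM13 under quantile normalization and on the 6 arrays alone. CYB2, CAR1 and SAG1 passed on the 6 arrays alone. QCR8 passed under median scaling and without nitrogen-limited replicate 3, and GLN3 without carbon-limited replicate 3. ADR1 and SNF3 lost their call with a floor of 4 (adjusted p = 0.0866 and 0.0520). Of 570 recounts of the 38 list counts of at least 5, 62 moved by over 1.5 times, among them trehalose and glycogen, with 12 rises on the 6 arrays alone, proteasome, with 12, tRNA synthetases and translation factors, with 18 falls, and weak acid and multidrug export, with 9 rises. For 270 genes with several probe sets above the floor, 1 gene, the ribosomal RNA gene RDN37-1, had probe sets called in opposite directions. Genes with 1 probe set called and another not called are not in that count. Signals near the floor limit what can be seen: 25.4% and 23.8% of the probe sets lay at or under it on average in the carbon-limited and nitrogen-limited arrays. The causes of these movements were not tested.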

Other observations

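The fall of respiratory genes extended to the ribosome inside mitochondria, a list drawn up after the values were seen. Of 54 mitochondrial ribosomal protein genes, 36 were lower under nitrogen limitation and none was higher, with log2 differences from -1.95 to 0.07 and a median of -0.86. RSM28, linked to the small subunit, read 80.0, 71.2 and 72.1 under nitrogen limitation and 309.5, 274 and 280.2 under carbon limitation, a 3.87-fold fall, and MRPL6 and MRPL15, of the large subunit, fell 2.84-fold and 2.60-fold. At 12 °C, 4 of them were called, also lower under nitrogen limitation, with a median of -0.49, and the difference between the temperatures passed for 2 of the 54. The cytosolic ribosomal proteins had a median of -0.36 at 30 °C.

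Heme synthesis, drawn up in the same way, split: 3 of 8 genes were lower under nitrogen limitation and 1 was higher. HEM1, the first enzyme, read 153, 112 and 99.7 under nitrogen limitation and 344, 344 and 352 under carbon limitation, and HEM3, the third enzyme, went from 56.3 ± 11.7 to 14.3 ± 3.11 (SD, n = 3), falls of 2.90-fold and 3.87-fold. HEM14, which acts late in the pathway and needs oxygen in aerobic cells, rose 2.16-fold, and HEM13, the step before it, differed by 0.57 ± 0.22 on the log2 scale (adjusted p = 0.0613). The call of HEM3 was lost with a floor of 50 (adjusted p = 0.290).

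Small nucleolar and nuclear RNAs, which the polyA label would leave out if it held strictly, had 6 of 43 tested members higher and 9 lower under nitrogen limitation. The share of higher ones was close to the 14.3% over all genes, where 12.6% were lower. Of the 60 listed, 17 were too dim to be tested. SNR128, the snoRNA U14, read 60.7, 48.9 and 41.5 under carbon limitation and 236, 243 and 218 under nitrogen limitation, a 4.67-fold rise, and SNR14, the spliceosomal U4 RNA, read 19.4, 10.5 and 17.3 under carbon limitation and 63.9, 64.7 and 87.0 under nitrogen limitation. SNR68 moved down 3.48-fold, and what the ribosomal RNA signals, low on nitrogen-limited replicates 1 and 3 (60.9 and 88.4), contribute here was not tested. With a floor of 50, 3 were higher and 5 lower, and with a floor of 4, 10 were higher.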
